A study of Solanum lycopersicum with 120 samples.

Results

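The genes described here responded to additional far-red light in wild-type (WT) tomato seedlings. By the means of replicates, they kept most of that response in *slpifq*, a line mutated in *SlPIF4*, *SlPIF7a*, *SlPIF7b* and *SlPIF8a*. They were chosen on the deposited normalized CPM (read counts scaled to library size) of the 6 h samples. For each genotype and organ the response was taken as log2 of the mean of 3 far-red replicates plus 1 over the mean of 3 white-light replicates plus 1, and M is the mean of this response over the 4 organs. A gene was a member when M was at least 0.6 in either direction in WT and when M in *slpifq* had the same sign and at least 0.75 of the WT value. Of 19169 genes in the table, 951 passed the first condition and 143 passed both, of which 100 were higher (rising members) and 43 lower (falling members) in far-red light. The WT and *slpifq* values at 6 h therefore chose the members and are given below as a description, with no test. Tests were made only on *slpif8a* at 6 h and on WT at 3 and 24 h, which the choice did not use.

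All seedlings were of the determinate M82 background, 12 days old and grown in long days at 24 °C in white light of 200 µmol m-2 s-1 (24WL). After 2 h of light they were either left in place or, per the labels, moved to the same light with additional far-red and an R/FR of 0.6 (24FR). Cotyledons, first leaf, hypocotyl and epicotyl were sampled after 6 h from WT, *slpif8a* and *slpifq*, and after 3 and 24 h from WT alone, with 3 biological replicates of 4 pooled seedlings in each group. The *slpif* alleles were made by CRISPR-Cas9, each mutant is represented by 1 line, and *SlPIF1a*, *SlPIF1b*, *SlPIF3* and *SlPIF8b* were not mutated in either line. Because the samples are whole organs, a change in RNA per cell and a change in the number of cells of a type cannot be told apart.

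In the shade of other plants red light is absorbed and far-red light is not, and the low ratio returns the photoreceptor phyB to its inactive form. Active phyB holds down the PHYTOCHROME INTERACTING FACTORS (PIFs), which are bHLH transcription factors, and in low R/FR these factors activate auxin and cell wall genes. Known early targets in Arabidopsis include genes of the class II homeodomain-leucine zipper (HD-ZIP) family, and CONSTANS-like B-box proteins are zinc finger regulators of light and day length responses.

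The 120 libraries held 15905765 to 33913236 counts on genes. The 26 genes of a photosynthesis list, as a marker of leafy tissue, summed to 27088 to 40343 CPM (cotyledons) and 37801 to 51438 CPM (first leaf) at 6 h, whereas the hypocotyl had 2132 to 3851 CPM and the epicotyl 2010 to 2947 CPM. Organ libraries with the same replicate number were taken as from the same seedlings, since the paper describes 4 seedlings per replicate for all organs. The labels do not say so. These libraries deviated together from their group means. The median correlation was 0.27 over 108 such pairs at 6 h against -0.11 over 216 pairs with different numbers. Tests of a mean over 4 organs were therefore run with edgeR on all libraries and again with limma on 1 value per seedling pool. That value was the mean of log2(CPM + 1) over the 4 organs of the pool. Counts over all members are given from both tests. Gene lists and most single genes are given with edgeR alone, which takes the organs of a pool as independent. The limma value is added for some genes.

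Among the WT responders, 20.7% of the 483 rising and 9.19% of the 468 falling genes were kept. Median M of the rising members was 0.81 in WT, 0.91 in *slpif8a* and 0.90 in *slpifq*. For the falling members the medians were -0.72, -0.58 and -0.67. The 808 genes not kept had a median of 0.88 in WT and 0.38 in *slpifq* when rising, and of -0.82 and -0.30 when falling. In 45 of the rising and 6 of the falling members the response of *slpifq* was larger than that of WT. In 18 rising members it was over 1.5 times as large. The replicates of *slpifq* often overlapped. All far-red replicates lay above all white-light replicates in every organ for 15 of the 100 rising members (0.631% of all genes), and in no organ for 32. They lay below them in every organ for 11 of the 43 falling members (0.756%), and in no organ for 10. In WT at 6 h, the light groups were apart in no organ for 6 rising and 0 falling members. The members just inside the WT limit were *Solyc09g011160*, an RCC1 family protein, at 0.60 and *Solyc05g052550* at 0.61, and just outside stood *Solyc04g071260* and *Solyc01g150176*, both at 0.59. Just inside the *slpifq* limit were *Solyc03g034410* and *Solyc04g074730* at 0.753 and 0.756 of the WT value, and just outside *Solyc10g011820* and *Solyc05g008230* at 0.747 and 0.745. *SlPIF8a* itself (*Solyc01g090790*), with M of -0.596 in WT and -0.563 in *slpifq*, fell just short of the first limit.

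**Figure D1:**
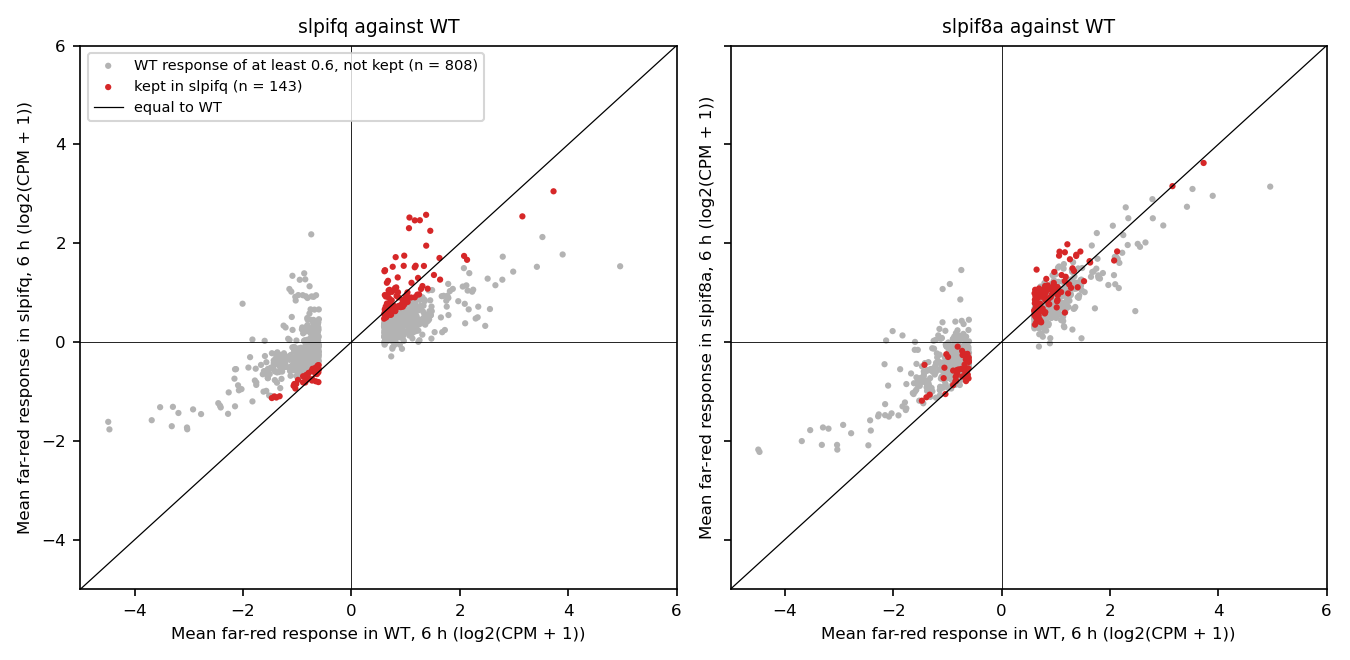
M at 6 h in *slpifq* (left) and *slpif8a* (right) against M in WT, both as log2 of CPM + 1, for the 951 WT responders, with the 143 members in red, the 808 others in grey and a line at equality. In *slpifq* the members lie near or beyond the line by choice, and in *slpif8a*, which the choice did not use, no M of a member has the opposite sign to WT. By the edgeR mean in *slpif8a*, 99 of 99 rising and 41 of 43 falling members have the WT sign. Of the responders not kept, 361 of 362 rising and 363 of 402 falling genes have it too.

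Gene groups were formed by product name, and each is given here by its members among its WT responders. Of the described cell wall genes 32 responded in WT and 17 of these were members, all rising, while of 43 responding auxin genes 2 were members. The touch, calcium and elicitor list had 7 members among 11 responders, the CONSTANS-like and B-box list 3 among 4, photosynthesis 4 among 5, and abscisic acid 4 among 11. HD-ZIP and homeobox factors had 2 among 13, flavonoid genes 1 among 8, bHLH factors 1 among 15, and wound and jasmonate genes 2 among 19. The gibberellin and brassinosteroid list had 4 among 22, MYB and RADIALIS factors 1 among 13, and light signalling 1 among 8. The 4 of the gibberellin and brassinosteroid list were the *EXORDIUM-like 1* genes, which are also counted among the 17 cell wall members. These counts follow from the choice and carry no test. Names were available for 119 of the 143 members, and the descriptions lean towards genes that respond in WT. The counts of rising and falling genes per list given below therefore do not stand for whole gene families.

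The member with the largest M in WT was *Solyc05g054750*, described as plant protein 1589 of uncharacterized function. In the cotyledons its level was 1.33, 2.10 and 2.22 CPM in 24WL and 76.7, 76.4 and 62.4 CPM in 24FR in WT. In *slpifq* the same organ held 1.24, 1.60 and 2.03 CPM against 39.0, 43.5 and 42.9 CPM. In *slpif8a* it held 1.67, 1.66 and 1.97 CPM against 62.7, 64.9 and 68.3 CPM. The 24FR samples lay far above every 24WL sample in each genotype. In *slpif8a* the gene rose by 4.51 ± 0.10 (SE) on the log2 scale over the 4 organs (edgeR adjusted p = 8.7e-39), and in WT by 3.92 ± 0.13 after 3 h and 3.72 ± 0.17 after 24 h.

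A second rising gene of the same description, *Solyc04g010285*, was most responsive in the cotyledons. There, WT held 0, 0.0552 and 0.103 CPM in 24WL and 66.6, 70.9 and 38.3 CPM in 24FR, and *slpifq* 0.226, 0.690 and 0.480 CPM against 27.4, 35.4 and 15.0 CPM. After 24 h in WT the cotyledons had no count in any 24WL library and 11.8, 18.7 and 22.7 CPM in 24FR, which is at least 138-fold higher than a floor of 3 counts per library. In the epicotyl of *slpif8a* the levels were 3.98, 4.60 and 3.68 CPM against 14.7, 11.7 and 11.9 CPM, so that the groups were apart there too but by less. Its response in *slpif8a* was larger in the leafy organs (cotyledons and first leaf) than in the stem organs by 3.35 ± 0.36 on the log2 scale (edgeR adjusted p = 4.9e-09). *Solyc05g005230*, of the same description, was a falling member with M of -1.03 in WT and -0.94 in *slpifq*, and it fell by 1.28 ± 0.15 in *slpif8a* (edgeR adjusted p = 1.1e-09).

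Both HD-ZIP members rose in every comparison that the choice did not use. Their descriptions do not name a class, so they cannot be taken as class II genes. For *HOX16* (*Solyc04g005800*) the hypocotyl of WT held 21.8, 12.3 and 11.7 CPM in 24WL and 78.6, 54.6 and 39.5 CPM in 24FR, that of *slpif8a* 19.7, 12.5 and 10.9 CPM against 79.0, 63.9 and 46.9 CPM, and that of *slpifq* 19.9, 16.3 and 11.1 CPM against 107, 56.5 and 73.7 CPM. No 24FR hypocotyl came down to the 24WL hypocotyls of its genotype. *HOX16* rose by 1.88 ± 0.15 in *slpif8a* (edgeR adjusted p = 6.2e-15) and by 2.53 ± 0.11 and 2.19 ± 0.11 in WT after 3 and 24 h. The other HD-ZIP gene, *Solyc01g090460*, rose by 1.86 ± 0.11 in *slpif8a* (edgeR adjusted p = 7.2e-20) and by 2.60 ± 0.09 after 3 h and 2.59 ± 0.09 after 24 h in WT. In the WT hypocotyl its levels after 24 h were 9.62, 8.16 and 10.1 CPM against 48.7, 45.5 and 40.3 CPM, well apart. Of 26 tested genes in the HD-ZIP and homeobox list, 9 rose and 3 fell in *slpif8a*, where 3.18 and 1.66% of all genes did. Of 25 tested in WT, 10 rose and 1 fell after 3 h, where 1.31 and 0.985% of all genes did.

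The CONSTANS-like members differed from each other in time. *Solyc07g006630*, CONSTANS-like 5-like, held 57.3, 49.8 and 52.4 CPM against 205, 183 and 189 CPM in the WT epicotyl at 6 h, 55.9, 55.7 and 60.2 CPM against 175, 176 and 175 CPM in *slpif8a*, and 48.9, 53.0 and 54.3 CPM against 186, 160 and 174 CPM in *slpifq*. The replicates were close and the light groups far apart. It rose by 1.10 ± 0.07 in *slpif8a* (edgeR adjusted p = 4.0e-19), and its response there was smaller in leafy than in stem organs by 0.78 ± 0.13 (edgeR adjusted p = 0.00014). In WT it rose by 1.48 ± 0.06 after 3 h and 1.63 ± 0.06 after 24 h.

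*Solyc07g053140*, another CONSTANS-like protein, rose by 1.15 ± 0.10 in *slpif8a* and by 0.95 ± 0.06 in WT after 3 h, but changed by 0.44 ± 0.06 after 24 h, which is under the minimum of 0.6 used for a call. The decline from 3 to 24 h was 0.51 ± 0.09 on the log2 scale (edgeR adjusted p = 1.4e-05). For *CONSTANS 1* (*Solyc02g089540*) the first leaf of *slpif8a* held 25.8, 24.9 and 17.7 CPM in 24WL and 43.2, 42.7 and 35.4 CPM in 24FR, with no overlap. The gene rose by 1.04 ± 0.18 in *slpif8a* and by 0.72 ± 0.11 after 3 h, whereas after 24 h the change of 0.22 ± 0.11 did not pass (edgeR adjusted p = 0.084). These 3 members were the genes of their list of 9 that rose in *slpif8a* (3.18% of all genes) and after 3 h (1.31%). *Solyc07g006630* was the 1 that rose after 24 h (2.89%).

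**Figure D2:**
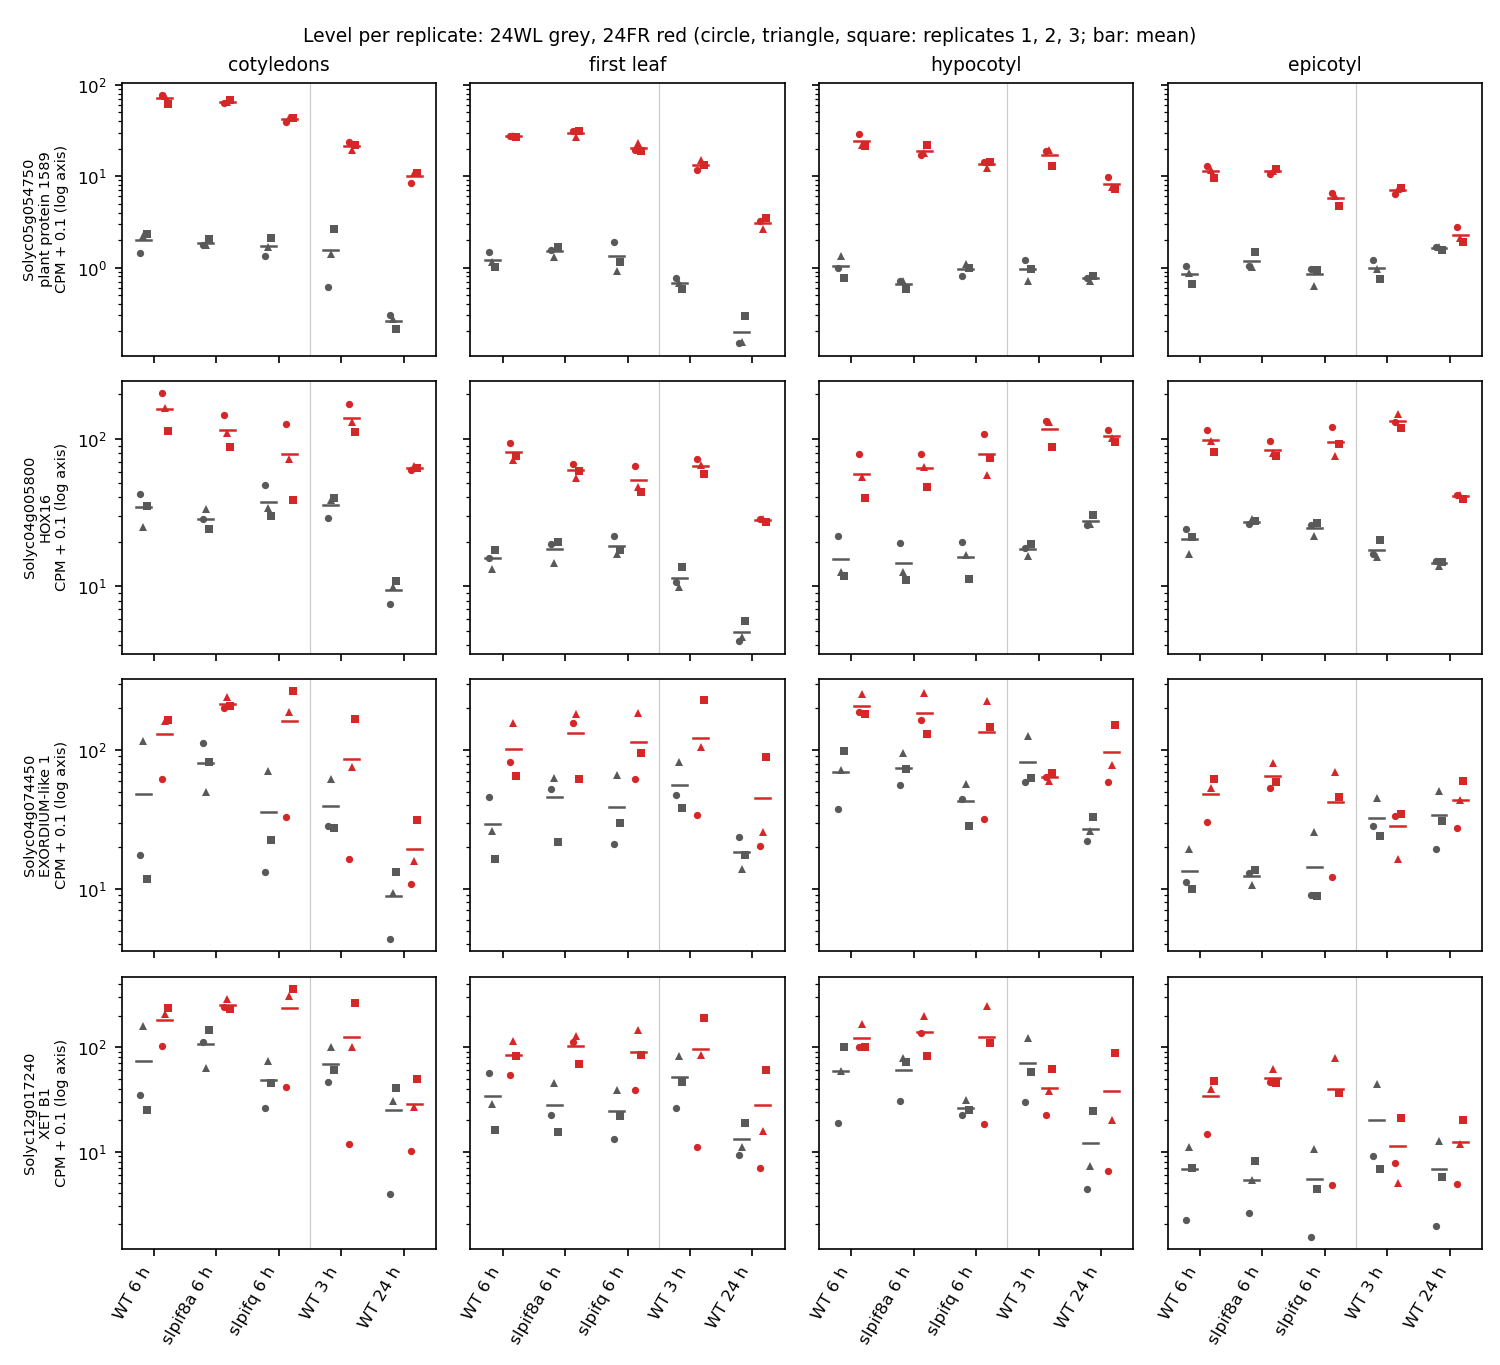
CPM + 0.1 on a log axis for 4 rising members (plant protein 1589, *HOX16*, *EXORDIUM-like 1* and xyloglucan endo-transglycosylase B1) in the 4 organs, each point 1 replicate (circle, triangle and square for replicates 1, 2 and 3) and each bar the mean, with 24WL in grey and 24FR in red. The upper rows show light groups that mostly stand apart, and the lower rows show groups that overlap. In the lower rows *slpifq* 24FR replicate 1 is low in the hypocotyl and epicotyl, and for xyloglucan endo-transglycosylase B1 in the cotyledons too.

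The cell wall members included xyloglucan endotransglucosylase/hydrolases, which cut and rejoin xyloglucan in the wall, pectinesterases, and EXORDIUM-like proteins, known in Arabidopsis from brassinosteroid-dependent growth. *EXORDIUM-like 1* (*Solyc04g074450*) held 37.8, 71.4 and 98.7 CPM against 187, 255 and 181 CPM in the WT hypocotyl at 6 h. The hypocotyl of *slpif8a* held 55.6, 94.9 and 72.6 CPM against 165, 260 and 131 CPM, and that of *slpifq* 44.0, 57.0 and 28.1 CPM against 32.0, 225 and 146 CPM. In *slpifq* the groups overlapped, since 24FR replicate 1 stood among the 24WL samples. The gene rose by 1.67 ± 0.34 in *slpif8a* (edgeR adjusted p = 8.9e-05, limma on seedling pools adjusted p = 0.034). It did not pass in WT after 3 h (0.43 ± 0.31, edgeR adjusted p = 0.37), and after 24 h its change of 1.15 ± 0.33 passed with edgeR (adjusted p = 0.0034) but not over seedling pools with limma (adjusted p = 0.071). The members *Solyc04g074410*, *Solyc04g074420* and *Solyc04g074440* carry the same description, and reads that map to several of such copies were not counted, so their separate levels are uncertain.

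Xyloglucan endo-transglycosylase B1 (*Solyc12g017240*) had the larger M in *slpifq*, 2.25 against 1.46 in WT. Its cotyledon levels in *slpifq* were 26.1, 73.0 and 45.4 CPM in 24WL and 41.4, 308 and 360 CPM in 24FR. In WT they were 35.1, 161 and 24.9 CPM against 103, 210 and 239 CPM. The groups overlapped in both genotypes. In *slpif8a* it rose by 1.90 ± 0.39 (edgeR adjusted p = 8.9e-05, limma on seedling pools adjusted p = 0.037), and after 3 h in WT it changed by 0.03 ± 0.45 (edgeR adjusted p = 0.98). After 3 h the WT cotyledons held 46.8, 99.5 and 60.4 CPM in 24WL and 11.6, 99.5 and 268 CPM in 24FR, again overlapping. The change after 3 h depended on single replicates, since it was -1.01 on the log2 scale without replicate 3 and 0.92 without replicate 2, neither of which passed (edgeR adjusted p = 0.25 and 0.33).

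In another cell wall member the replicates were closer. *Solyc08g005800*, a pectin acetylesterase, held 393, 498 and 465 CPM against 775, 907 and 871 CPM in the hypocotyl of *slpif8a*, and 225, 223 and 231 CPM against 415, 361 and 393 CPM in WT after 24 h. The light groups were apart in both. Classical arabinogalactan protein 5 (*Solyc04g074730*), a cell surface proteoglycan that the cell wall list does not hold, had 52.2, 57.4 and 48.4 CPM against 61.0, 60.4 and 54.2 CPM in the WT hypocotyl after 3 h and 68.7, 62.0 and 61.9 CPM against 221, 196 and 209 CPM after 24 h. Its response was larger after 24 h than after 3 h by 1.04 ± 0.12 (edgeR adjusted p = 1.0e-09), and in *slpif8a* its change of 0.40 ± 0.10 was under the minimum for a call. For the cell wall member *Solyc07g055990*, a xyloglucan endotransglucosylase/hydrolase, the response was also larger after 24 h, by 1.89 ± 0.61 (edgeR adjusted p = 0.019, limma on seedling pools adjusted p = 0.017). Over the whole cell wall list, 26 of 63 tested genes rose and 3 fell in *slpif8a* (3.18 and 1.66% of all genes). In WT, 6 of 64 rose after 3 h (1.31%), and 29 rose and 5 fell after 24 h (2.89 and 3.08%).

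The 18 rising members with a *slpifq* response over 1.5 times that of WT varied most between replicates. With a mean above 5 CPM, the median standard deviation of log2(CPM + 1) within a 6 h group was 0.81 for 17 of these members, 0.33 for 48 members with a ratio of at most 1, 0.41 for 91 rising members, 0.24 for 29 falling members and 0.13 for all genes. The WT and *slpifq* libraries at 6 h also set the ratio, so their spread and replicate order are not independent of the choice. In WT at 3 and 24 h, which the choice did not use, the median was 1.05 for 16 of the 18. It was 0.20 for 48 rising members with a ratio of at most 1 and 0.12 for all genes. Replicate 1 of *slpifq* in 24FR was the lowest of the 3 replicates in all 4 organs for 65 of the 100 rising members and for 15 of the 18, against 8.59% of all genes. In *slpif8a* 24FR this was so for 39 and in WT 24FR at 6 h for 37 of the 100, against 7.67 and 4.63% of all genes. In WT after 3 h, replicate 2 was the highest in all 4 organs in 24WL for 36 rising members and for 15 of the 18 (2.72% of all genes), and replicate 3 in 24FR for 35 and 15 (4.45%). After 24 h in 24FR, replicate 1 was the lowest for 27 and 14 of the 18 (2.77%) and replicate 3 the highest for 36 and 14 (3.68%). WRKY40 (*Solyc06g068460*), of a family known from defence and elicitor responses, held 17.7, 184 and 81.3 CPM in the *slpifq* 24FR hypocotyl and 30.7, 28.8 and 17.4 CPM in 24WL. *Solyc03g093130*, which has no description, held 0.392, 32.0 and 18.9 CPM against 0.621, 1.14 and 1.07 CPM there. Replicate 1 was not above the 24WL samples in either gene, and the other 24FR replicates were.

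When the 4 libraries of *slpifq* 24FR replicate 1 were left out, the rule gave 206 members, 129 of them among the 143, and when those of WT 24WL replicate 1 were left out it gave 108, with 88 shared. What set these replicates apart was not tested. Of the 18 members, 17 rose with edgeR in *slpif8a* (3.18% of all genes), 0 in WT after 3 h (1.31%) and 5 after 24 h (2.89%). Over seedling pools with limma the counts were 3 (1.87%), 0 (0.874%) and 1 (2.03%). After 3 h DESeq2 also called 0 of them, and 1 was higher at an unadjusted edgeR p below 0.05. Their median log2 change in WT was 0.14 after 3 h and 0.80 after 24 h.

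**Figure D3:**
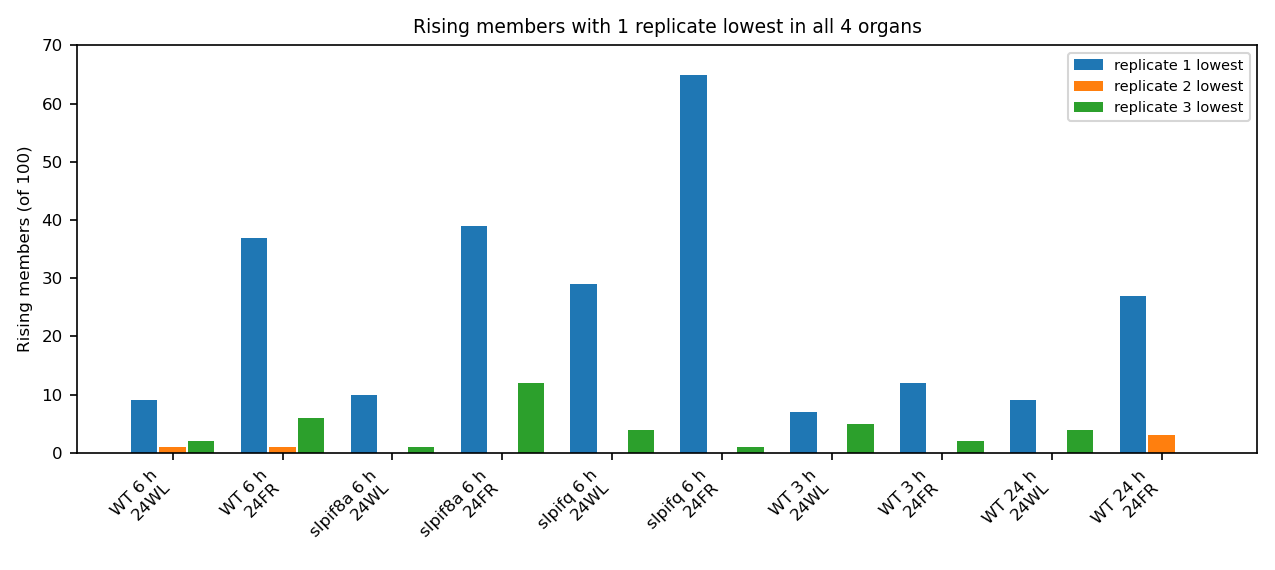
Number of the 100 rising members for which a given replicate was the lowest of 3 in all 4 organs, for each genotype, time and light. The tallest bar is replicate 1 of *slpifq* 24FR with 65 members, followed by replicate 1 of *slpif8a* 24FR with 39 and of WT 24FR at 6 h with 37.

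The auxin list had 2 members, both rising. *IAA3* (*Solyc09g065850*), an auxin-induced repressor of auxin response, held 11.2, 15.4 and 18.9 CPM against 67.5, 55.7 and 51.7 CPM in the epicotyl of *slpif8a*, and 9.76, 12.3 and 14.3 CPM against 13.1, 34.5 and 21.2 CPM in that of *slpifq*. The groups were apart in *slpif8a* and overlapped in *slpifq*. It rose by 2.04 ± 0.19 in *slpif8a* (edgeR adjusted p = 5.5e-13), 0.62 ± 0.17 after 3 h and 0.90 ± 0.17 after 24 h. The rise after 3 h did not pass over seedling pools (limma adjusted p = 0.054). *SAUR65* (*Solyc04g053010*), of the small auxin-up RNA family, rose by 1.71 ± 0.28, 1.15 ± 0.25 and 1.53 ± 0.24 in the same order. Of the auxin list, 35 of 49 tested genes rose in *slpif8a* and 4 fell (3.18 and 1.66% of all genes).

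The 4 abscisic acid members, all rising, were receptors, *PYL5* and *PYL6*, and genes described as protein phosphatase 2C family, listed here by that name alone. *PYL5* (*Solyc10g085310*) held 3.23, 3.86 and 3.64 CPM against 7.20, 13.9 and 15.6 CPM in the epicotyl of *slpif8a*, where the groups were apart. It rose by 1.01 ± 0.14 there over all organs (edgeR adjusted p = 1.1e-07) and by 0.74 ± 0.11 in WT after 24 h, while its change of 0.49 ± 0.10 after 3 h was under the minimum of 0.6. *PYL6* (*Solyc10g076410*) rose by 0.97 ± 0.21 in *slpif8a* with edgeR (adjusted p = 0.00025) but did not pass over seedling pools with limma (adjusted p = 0.074), and its changes of 0.21 ± 0.16 after 3 h and 0.44 ± 0.17 after 24 h did not pass. The phosphatase gene *Solyc01g065700* held 22.1, 18.6 and 18.3 CPM against 94.4, 85.0 and 89.1 CPM in the WT hypocotyl after 24 h and 27.2, 23.7 and 25.4 CPM against 36.1, 37.4 and 38.6 CPM after 3 h. Its response was larger after 24 h than after 3 h by 1.03 ± 0.20 (edgeR adjusted p = 7.5e-05), and it rose by 0.98 ± 0.20 in *slpif8a* (edgeR adjusted p = 0.00011). The other phosphatase gene, *Solyc04g079120*, rose by 0.65 ± 0.21 in *slpif8a* (edgeR adjusted p = 0.011) and 0.65 ± 0.12 after 24 h. Its call in *slpif8a* was lost in 10 alternatives, among them the leaving out of any 1 replicate and limma on seedling pools (adjusted p = 0.21).

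The tetratricopeptide repeat protein gene *Solyc07g008210* had levels over 1 CPM only in cotyledons and first leaf. In the cotyledons WT held 8.56, 5.91 and 5.63 CPM against 84.7, 66.1 and 65.3 CPM and *slpifq* 6.45, 3.71 and 4.80 CPM against 39.3, 50.6 and 22.1 CPM at 6 h, with the groups apart in both. In *slpif8a* it rose by 1.68 ± 0.49 over the 4 organs (edgeR adjusted p = 0.0049, limma on seedling pools adjusted p = 3.8e-07). With edgeR this call was lost without replicate 1 (1.28 ± 0.57, adjusted p = 0.075), without the cotyledons (1.05 ± 0.62, adjusted p = 0.20) and without the first leaf (1.08 ± 0.62, adjusted p = 0.18). In WT the change after 3 h, 0.96 ± 0.42, did not pass with edgeR (adjusted p = 0.10) and passed over seedling pools with limma (1.29 ± 0.06, adjusted p = 2.3e-09), and after 24 h the gene rose by 1.55 ± 0.32 (edgeR adjusted p = 6.1e-05).

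Falling members included enzymes, chloroplast proteins and transcription factors. *Solyc05g052240*, of the chalcone-flavonone isomerase family, whose members act in flavonoid synthesis, held 135, 136 and 119 CPM in 24WL and 43.7, 37.1 and 34.4 CPM in 24FR in the WT epicotyl. *slpif8a* held 155, 141 and 122 CPM against 58.1, 60.3 and 50.8 CPM, and *slpifq* 121, 109 and 127 CPM against 61.5, 63.8 and 67.1 CPM. All 24FR samples were below all 24WL samples. The gene fell by 1.22 ± 0.07 in *slpif8a* (edgeR adjusted p = 1.5e-20), by 0.80 ± 0.07 in WT after 3 h and by 1.21 ± 0.07 after 24 h. Of the 12 flavonoid genes, 7 fell in *slpif8a* (1.66% of all genes).

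A dihydrofolate reductase-like gene (*Solyc06g060570*), of a family in folate metabolism, held 11.7, 11.6 and 9.97 CPM against 4.24, 3.25 and 2.37 CPM in the cotyledons of *slpif8a* and 17.6, 14.9 and 16.7 CPM against 5.49, 4.28 and 4.35 CPM in those of *slpifq*. The groups were apart. It fell by 1.42 ± 0.09 in *slpif8a* (edgeR adjusted p = 6.6e-18), by 0.97 ± 0.09 after 3 h and by 1.27 ± 0.10 after 24 h.

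*bHLH019* (*Solyc03g006910*), a bHLH transcription factor, had its highest levels in the hypocotyl. The WT hypocotyl held 7.61, 8.79 and 10.5 CPM in 24WL and 0.499, 0.270 and 0.239 CPM in 24FR at 6 h, and that of *slpifq* 14.2, 7.61 and 25.6 CPM against 1.86, 1.22 and 1.67 CPM. After 24 h WT held 44.0, 35.7 and 45.9 CPM against 29.8, 27.1 and 18.2 CPM. The groups were apart at both times. It fell by 2.62 ± 0.46 in *slpif8a* (edgeR adjusted p = 9.1e-06), by 1.96 ± 0.29 in WT after 3 h and by 0.86 ± 0.18 after 24 h, a difference between the times of 1.09 ± 0.34 (edgeR adjusted p = 0.013, limma on seedling pools adjusted p = 0.067). The RADIALIS-like 6 gene (*Solyc10g052470*), of the small MYB-related family, fell by 1.03 ± 0.16 in *slpif8a* and by 1.19 ± 0.19 after 3 h.

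**Figure D4:**
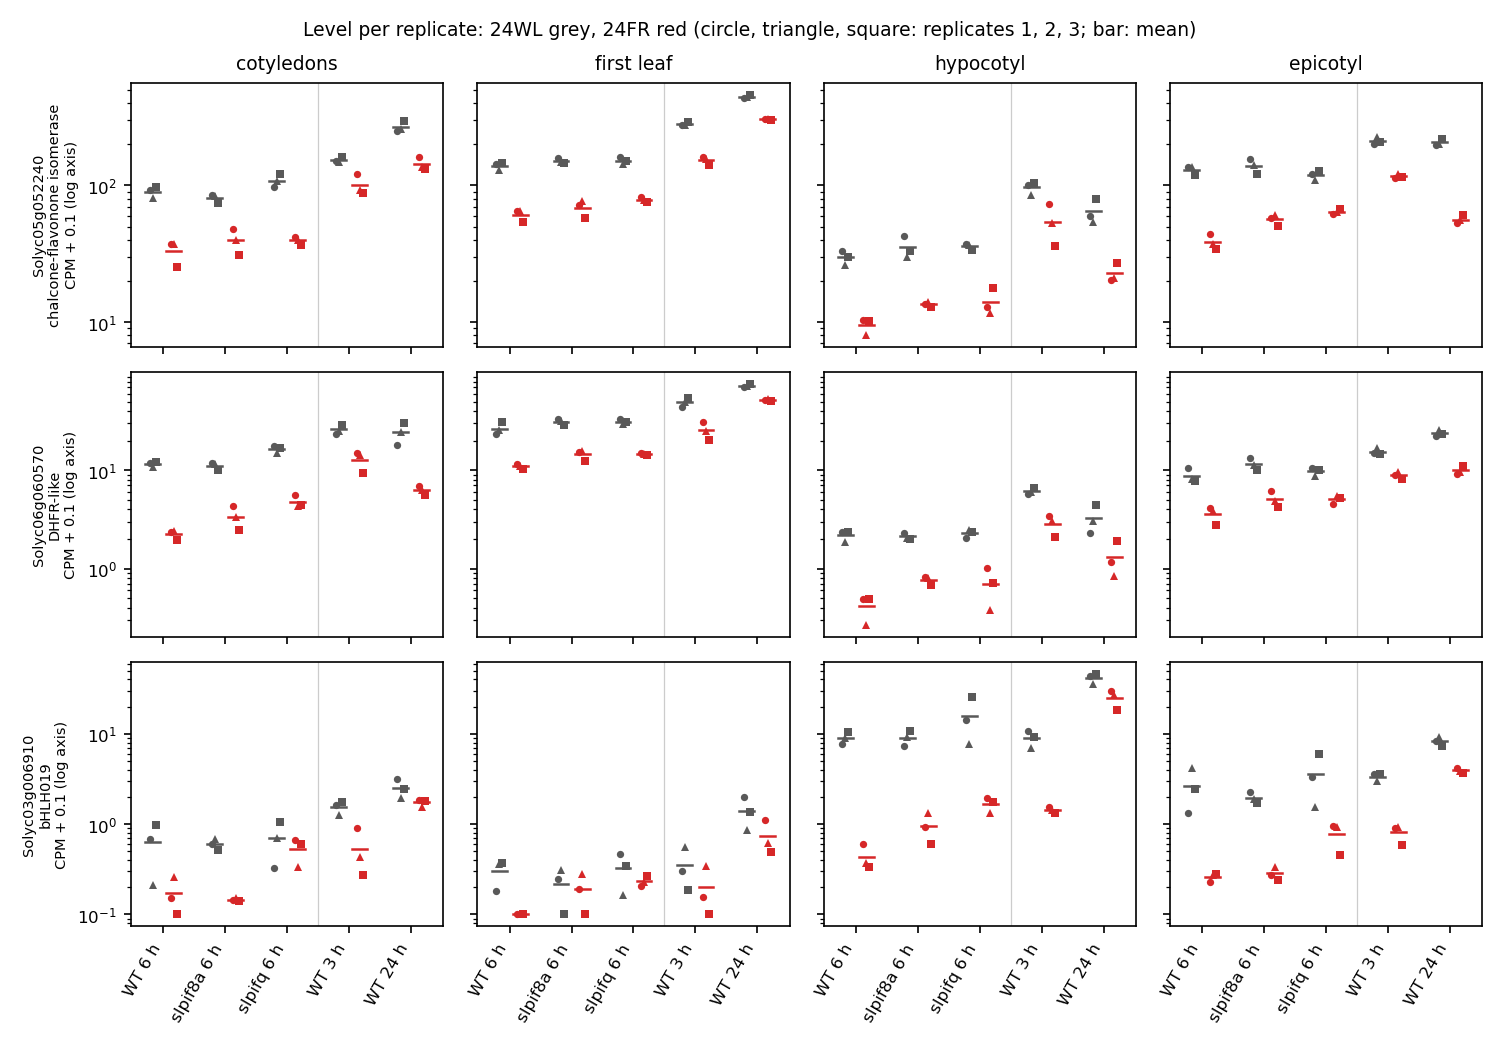
CPM + 0.1 on a log axis for 3 falling members (chalcone-flavonone isomerase family, dihydrofolate reductase-like and *bHLH019*) in the 4 organs, each point 1 replicate and each bar the mean, with 24WL in grey and 24FR in red. The means of the first 2 genes are lower in 24FR in all genotypes and times, and *bHLH019* is clearest in the hypocotyl, where 24FR after 24 h is closer to 24WL than at 6 h.

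The photosynthesis members were 2 fructose-bisphosphate aldolases, which act in the Calvin cycle and glycolysis, a subunit of the photosynthetic NDH complex and a PsbP protein of photosystem II. NDH subcomplex B 3 (*Solyc08g083360*) held 20.2, 12.4 and 13.8 CPM against 7.42, 10.1 and 6.46 CPM in the hypocotyl of *slpif8a* and 434, 442 and 419 CPM against 361, 415 and 395 CPM in the first leaf. The groups were apart in both organs, by a narrow margin in the leaf. Its response in *slpif8a* was more negative in the stem than in the leafy organs, by 0.61 ± 0.13 (edgeR adjusted p = 0.0029). Over the 4 organs its changes of -0.49 ± 0.07 in *slpif8a*, -0.12 ± 0.06 after 3 h and -0.50 ± 0.06 after 24 h were all under the minimum of 0.6. The aldolase *Solyc01g110360* changed by -0.57 ± 0.10 in *slpif8a*, also under the minimum, by -0.09 ± 0.07 after 3 h and fell by 0.79 ± 0.07 after 24 h (edgeR adjusted p = 3.9e-14). Of 25 tested genes of the photosynthesis list 3 fell in *slpif8a* (1.66% of all genes). Phytoene synthase 1 (*Solyc03g031860*), the entry enzyme of carotenoid synthesis, was also a falling member, with 55.3, 57.2 and 53.1 CPM against 36.7, 27.0 and 32.4 CPM in the epicotyl of *slpif8a*, well apart. The response was weaker in the cotyledons of *slpif8a* (-0.25), and M there over the 4 organs was -0.59. Taken in the same way in WT, M was -0.16 after 3 h and -0.22 after 24 h.

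The alcohol acyl transferase *Solyc05g015800* and the proteinase inhibitor *Solyc03g098795* were members by M but did not pass in *slpif8a*. The first changed by -0.71 ± 0.41 (edgeR adjusted p = 0.17), and its *slpifq* first leaf held 8.40, 2.29 and 41.4 CPM against 3.10, 3.76 and 6.46 CPM, overlapping. In WT it fell by 0.67 ± 0.17 after 3 h (edgeR adjusted p = 0.0021), which did not pass over seedling pools (-0.57 ± 0.18 with limma), and by 1.34 ± 0.14 after 24 h (edgeR adjusted p = 1.6e-11). The proteinase inhibitor, a wound-induced defence protein, changed by 0.02 ± 0.55 (edgeR adjusted p = 0.98), and its WT first leaf at 6 h held 4.81, 1.15 and 34.3 CPM against 1.02, 0.307 and 0.488 CPM, where 1 of the 24WL libraries was far above the others. After 24 h in WT it fell by 3.99 ± 1.08 (edgeR adjusted p = 0.0018), and this call was lost without replicate 1 (adjusted p = 0.11) or without replicate 2 (adjusted p = 0.20).

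In *slpif8a* as a whole, 88 of 99 tested rising members rose with edgeR (adjusted p below 0.05, log2 change over the 4 organs of 0.6 or more), where 3.18% of all genes did, and their median log2 change was 1.03 against -0.01 for all genes. Of the falling members 24 of 43 fell, where 1.66% of all genes did, with a median of -0.71. Over seedling pools with limma the counts were 57 and 18, against 1.87 and 0.819% of all genes. Among WT responders that were not members, 259 of 362 rising genes (71.5%) rose and 152 of 402 falling genes (37.8%) fell in *slpif8a*, with medians of 0.82 and -0.53.

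By organ, with a minimum of 1 on the log2 scale, 53 rising members rose in the epicotyl of *slpif8a* (1.48% of all genes), 20 in the hypocotyl (1.17%), 19 in cotyledons (1.51%) and 17 in first leaves (0.67%). These were 53.5, 20.2, 19.2 and 17.2% of the rising members tested, against 29.0, 39.5, 48.9 and 21.5% of the 362 rising responders not kept. Of the falling members 16 fell in the hypocotyl (1.05%), 7 in the epicotyl (0.624%), 7 in cotyledons (0.63%) and 2 in first leaves (0.206%). In that order, these were 37.2, 16.3, 16.3 and 4.65% of the falling members, against 23.4, 12.2, 15.4 and 7.71% of the 402 falling responders not kept. All 3 24FR replicates lay above all 3 24WL replicates in each of the 4 organs for 35 of the 100 rising members (2.31% of all genes), and below them for 12 of the 43 falling members (1.27%). The difference between leafy and stem responses passed for 6 rising members, 1 with the larger value in leafy organs (3.99% of all genes) and 5 with the smaller (2.67%), and for 8 falling members, all with the higher value in leafy organs. Over seedling pools with limma, 4 rising and 7 falling members had the larger value in leafy organs (3.32% of all genes) and 6 and 2 the smaller (1.93%). These 14 members were 7, 6 and 6 without replicates 1, 2 and 3, and the 60 members that passed in the epicotyl in the WT direction were 28 without replicate 2 and 34 without replicate 3, while the 19 in the first leaf were 10 and 11. Among the 5 was a lipid-transfer protein gene (*Solyc08g005960*), lower by 1.98 ± 0.25 in leafy organs (edgeR adjusted p = 2.5e-07), with 5.09, 5.28 and 6.96 CPM against 24.3, 37.2 and 46.1 CPM in its hypocotyl, whereas its cotyledons held 367, 354 and 343 CPM against 392, 505 and 494 CPM.

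In WT after 3 h, 22 of the 100 rising members rose (1.31% of all genes, median 0.39) and 11 of 41 tested falling members fell (0.985%, median -0.40). After 24 h, 59 rose (2.89%, median 0.79) and 15 fell (3.08%, median -0.33). Over seedling pools with limma, 16 rose and 9 fell after 3 h (0.874 and 0.624% of all genes), and 44 rose and 10 fell after 24 h (2.03 and 1.72%). At both times 18 rising members passed, 4 only after 3 h, 41 only after 24 h and 37 at neither, which does not show that the times differ for a given gene. The difference itself was higher after 24 h for 18 rising members (12.3% of all genes) and lower for 5 (10.8%). Over the rising and falling members together the difference passed for 39, for 24 without replicate 1, 18 without replicate 2, and 22 over seedling pools with limma. Of those 22, 13 were higher after 24 h, 10 rising and 3 falling (7.25% of all genes), and 9 were lower, 5 rising and 4 falling (5.72%). Of the non-members, 163 of 366 rising responders (44.5%) rose after 3 h and 224 (61.2%) after 24 h.

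By organ after 3 h, 14 rising members rose in cotyledons (0.819% of all genes), 9 in first leaves (0.492%), 10 in hypocotyls (0.71%) and 7 in epicotyls (0.429%), while 6 (0.464%), 1 (0.212%), 5 (0.693%) and 2 (0.286%) falling members fell in these organs. After 24 h the hypocotyl had the most, with 39 rising members (2.06%), followed by the epicotyl with 25 (2.6%), the cotyledons with 20 (1.59%) and the first leaf with 9 (0.607%). Falling members that fell after 24 h numbered 13 in the epicotyl (4.33%), 7 in the cotyledons (0.979%), 6 in the hypocotyl (2.18%) and 5 in the first leaf (0.521%). Of the 366 rising responders not kept, 28.4, 19.4, 19.9 and 15.3% rose after 3 h in cotyledons, first leaf, hypocotyl and epicotyl. After 24 h 35.5, 21.9, 44.5 and 30.9% did. Of the 398 falling ones, 10.8, 8.04, 13.8 and 8.29% fell after 3 h, and 21.4, 15.3, 32.7 and 42.5% after 24 h. Without replicate 3 the 45 members of the hypocotyl after 24 h were 28, and the 20 of the cotyledons after 3 h were 9, or 12 without replicate 2.

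In *slpif8a*, after 3 h and after 24 h alike, 18 of 99 rising and 6 of 41 falling members tested throughout passed with edgeR, where 0.844 and 0.431% of all genes did, and 12 and 3 of these also passed over seedling pools with limma (0.605 and 0.291%). Of the WT responders that were not members, 117 of 360 rising (32.5%) and 63 of 393 falling genes passed all 3 comparisons with edgeR, against 18.2% of the rising members. The 12 were both rising plant protein 1589 genes, both HD-ZIP genes, CONSTANS-like 5-like, *SAUR65*, the pectin acetylesterase, a beta-tubulin (*Solyc04g081490*), a GDSL esterase/lipase (*Solyc12g017460*), a heavy metal-associated isoprenylated protein (*Solyc10g011960*) and the lipid-transfer protein genes *Solyc08g005960* and *Solyc07g007860*. The 3 were the chalcone-flavonone isomerase family gene, the dihydrofolate reductase-like gene and *bHLH019*. The far-red seedlings of 3, 6 and 24 h were harvested at 5, 8 and 2 h after lights on, so that time in far-red and time of day cannot be told apart.

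**Figure D5:**
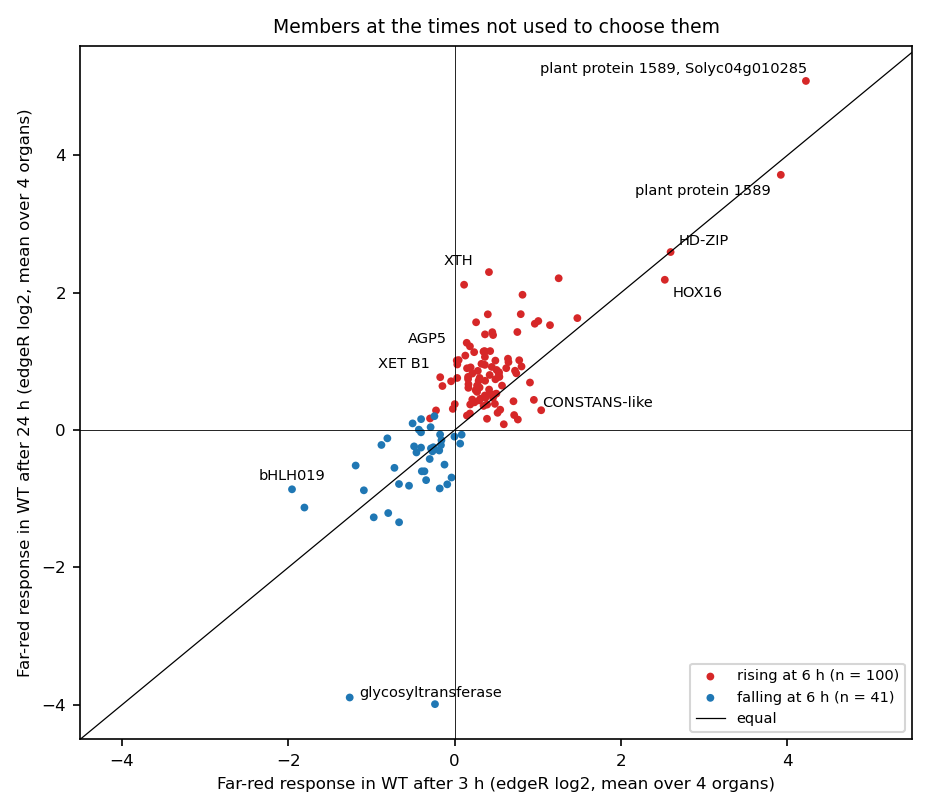
Log2 response to far-red in WT after 24 h against that after 3 h, each the edgeR mean over 4 organs, for the 100 rising members in red and the 41 tested falling members in blue, with a line at equality. Most rising members lie above 0 at both times, with plant protein 1589, *HOX16* and the HD-ZIP gene far out on both axes, and xyloglucan endo-transglycosylase B1 near 0 after 3 h.

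In white light alone, WT at 3 and 24 h, 27 of the 41 tested falling members were higher in leafy than in stem organs by at least 1 on the log2 scale (18.6% of all genes), 4 were lower (15.2%), and their median difference was 1.68 against -0.11 for all genes. Of the rising members 18 were higher and 32 lower in leafy organs, with a median of -0.28. Over seedling pools with limma, 26 falling and 13 rising members were higher in leafy organs (17.1% of all genes), and 3 and 24 were lower (12.6%). Among falling responders that were not members, 97 of 398 (24.4%) were higher in leafy organs. Between the white-light samples of 5 and 2 h after lights on, 20 rising members were higher at 5 h (2.82% of all genes) and 3 lower (1.76%), and 11 falling members were lower. Over seedling pools with limma these counts were 14 (1.68%), 3 (1.04%) and 9.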

How the data were processed

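RNA-seq of 4 organs gave 120 libraries, of which 24, WT after 6 h, are shared by the genotype and time-course tables. Per the study's methods and the submitters' processing notes, single-end reads were aligned by the authors using STAR 2.7.9a and assigned to genes by HTSeq 0.13.5, and raw counts were deposited. A second deposited table gives signal as CPM on TMM-scaled library sizes, made by the authors in edgeR 3.40.2. The 5 entries without a gene name held 8.54 to 17.0% of a library's counts and were left out. The 17460 and 17469 genes exceeding 5 CPM in 3 or more libraries entered the tests.

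With R 4.3.3, edgeR 4.0.16 (TMM, quasi-likelihood test, a mean for every group over 72 libraries) was applied to counts, with Benjamini-Hochberg adjustment over all tested genes. Calls needed an adjusted p under 0.05 and a log2 change of at least 0.6 for a mean over organs or 1 for an organ or a white-light level. Differences of responses needed the adjusted p alone. Because the edgeR mean over organs treats the organ libraries of a seedling pool as independent, limma 3.58.1 on pool means of log2(CPM + 1) was added after the data were seen. Other alternatives were DESeq2 1.42.0, other filters and size factors, limma on deposited CPM with pseudocounts of 1 and 0.1, a replicate block, and leaving out each replicate, library or organ.

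Replicates are pools of separate seedlings. With 3 against 3 an exact permutation test could not go below 0.1. On simulated data for the *slpif8a* mean, 194 of 200 genes changed by 1 on the log2 scale were recovered among 17389. Independent organs were assumed, and the changed genes were drawn from all genes with a mean above 5 CPM. Recovery of smaller changes, or of genes as variable as the members, was not measured. Of the members, 99 rising and 43 falling passed the filter in the genotype table, and 100 and 41 in the time course. The members and lists were chosen with earlier results of these data known. Genes were named by size of M (10 rising, 8 falling), by list, by nearness to the limits, and by the largest differences between times or organs. *Solyc08g005800*, *Solyc03g031860*, *Solyc03g093130*, *Solyc04g081490*, *Solyc12g017460*, *Solyc10g011960* and *Solyc07g007860* were named after their values were seen. Gene sequences and positions are not used here.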

Additional observations from a re-analysis of the deposited data

Results flagged for a closer look

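With edgeR, the WT response was higher after 24 h than after 3 h for 18 rising and 8 falling members (12.3% of all genes). It was lower for 5 rising and 8 falling members (10.8%). Over seedling pools with limma, 10 rising and 3 falling were higher (7.25%), and 5 rising and 4 falling lower (5.72%). Among the named members, the response in WT differed between 24 and 3 h for 16 with edgeR (adjusted p under 0.05, mean over 4 organs, log2 scale). It was lower after 24 h for *Solyc12g098580*, a glycosyltransferase (-2.63), *Solyc09g011160*, an RCC1 family protein (-0.75), the aldolase *Solyc01g110360* (-0.70), the alcohol acyl transferase *Solyc05g015800* (-0.67), the CONSTANS-like *Solyc07g053140* (-0.51) and *CONSTANS 1* (*Solyc02g089540*, -0.50). It was also lower for *Solyc05g052240* of the chalcone-flavonone isomerase family (-0.41), the oligopeptide transporter *Solyc08g082990* (-0.39) and the NDH subunit *Solyc08g083360* (-0.38). Where the member falls, a lower value is a stronger fall.

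It was higher after 24 h for the RADIALIS-like *Solyc10g052470* (0.67), *Solyc05g005230* of the plant protein 1589 description (0.69), the lipid-transfer protein *Solyc08g005960* (0.96), the phosphatase *Solyc01g065700* (1.03), arabinogalactan protein 5 (*Solyc04g074730*, 1.04), *bHLH019* (*Solyc03g006910*, 1.09) and the xyloglucan endotransglucosylase/hydrolase *Solyc07g055990* (1.89). The difference for *bHLH019* did not pass with limma over seedling pools. For the glycosyltransferase the WT hypocotyl held 3.13, 4.11 and 5.67 CPM in 24WL and 0.151, 0.140 and 0.102 CPM in 24FR after 24 h, against 8.76, 7.07 and 9.06 CPM and 6.29, 3.75 and 3.10 CPM after 3 h, so that the light groups were apart at both times.

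With edgeR, the response in *slpif8a* was higher in leafy than in stem organs for 1 rising and 8 falling members (3.99% of all genes). It was lower for 5 rising members (2.67%). Among the named members, leafy and stem organs of *slpif8a* differed in their response, with edgeR, for 8. The difference, leafy minus stem, was -1.98 for *Solyc08g005960*, -1.42 for *Solyc01g065700* and -0.78 for the CONSTANS-like 5-like *Solyc07g006630*. It was 0.49 for *Solyc08g082990*, 0.61 for *Solyc08g083360*, 0.92 for *Solyc01g079470*, 0.98 for *Solyc07g052610*, a U-type cyclin, and 3.35 for *Solyc04g010285*. With limma over seedling pools *Solyc07g052610* did not pass (adjusted p = 0.21).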

How the results depend on the processing

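The counts of members called in *slpif8a* and in WT after 3 and 24 h, over the mean of 4 organs, were 112, 33 and 74 with edgeR. Except as given here, the counts stayed within 1.5 times under the alternatives run. With the organs averaged per replicate, an alternative chosen after seeing the data, the calls over all genes were 469, 257 and 644 in place of 844, 401 and 1043, those of the difference between 24 and 3 h were 22 members and 2226 genes in place of 39 and 4035, and those between 5 and 2 h after lights on were 466 genes in place of 800. Limma with a pseudocount of 1 gave 265 genes after 3 h and 656 after 24 h. The adjusted p alone gave 6654, 3570 and 8639 genes and 69 members after 3 h. With 1 replicate left out, the calls moved most in the first leaf of *slpif8a* (10 to 13 members and 101 to 115 genes, from 19 and 153), in its epicotyl (28 to 43 and 219 to 339, from 60 and 367), in its difference between leafy and stem organs (6 to 7 and 245 to 361, from 14 and 1162), in WT cotyledons after 3 h (9 to 22 members, from 20), in the WT hypocotyl after 24 h (28 to 42 members, from 45), and in the difference between 24 and 3 h (18 to 36 members and 1947 to 3130 genes). The number of members itself was 217 with a pseudocount of 0.1 (127 of them shared with the 143), 40 with a minimum of 1 in WT, 74 with at least 0.9 of the WT value, and 90 to 206 with 1 replicate left out in every group or in 1 group (75 shared at 90 and 129 at 206, the latter without *slpifq* 24FR replicate 1). *Solyc10g052470*, past the adjusted p alone, changed sign, to 0.14, after 24 h in WT without the cotyledons. Of the named genes that did not pass, 2 of 12 in *slpif8a*, 14 of 29 after 3 h and 8 of 17 after 24 h had the other sign in some alternative, and of those that passed 0 did. Of the named genes that passed, 25 of 37 in *slpif8a*, 14 of 18 after 3 h and 19 of 30 after 24 h passed under every alternative. The cause of these shifts was not tested, apart from the smaller number of samples or the stricter or looser rule itself. The labels do not say that a replicate number is shared between the light groups. The deviations of 24WL and 24FR samples with the same number correlated by -0.21 to 0.43 over 36 pairs, 19 of them above 0.1, and 24 of the 36 samples correlated best with their own number, which hints at some pairing. All 3 pairs were above 0.1 in the WT hypocotyl after 24 h and in no other organ of the tested groups, and there a replicate block gave 45 members and 738 genes in place of 45 and 739. Over the 4 organs the block gave 111 members in *slpif8a*, 32 after 3 h and 72 after 24 h, and it moved no count by over 1.5 times and changed the call of no named gene. A fold under 0.6 on the log2 scale, and genes under 5 CPM, are beyond what these calls describe, and a response against a group at 0 counts is known only as a lower bound.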
